A study of Homo sapiens with 20 samples.

Results

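In M14 melanoma cells, 361 of the 151825 windows of 20 kb that tile chromosomes 1 to 22 and X of hg19 held a dense cluster of SMC1A peaks and at most 1 CTCF peak. SMC1A is a core subunit of cohesin, the ring complex that folds chromatin into loops, and moving cohesin often halts where CTCF is bound to DNA. The windows, called member bins below, were selected on measured values: 5 or more summits (the base of highest signal in a peak) in the WT SMC1A list of replicate 1 and at most 1 in the WT CTCF list of the same replicate. They covered 7.22 Mb and made up 18.1% of the 1991 bins that were this dense in SMC1A. The other 1630 dense bins held 2 or more CTCF summits.

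M14 is a human melanoma line. WT and STAG2-KD cells alike carried an shRNA against STAG2 that doxycycline induces (shRNA#60 in a pTRIPZ vector); STAG2-KD cells had 5 days of doxycycline and WT cells none, so the agent and the knockdown cannot be told apart. The labels of replicate 1 state this, with puromycin in the medium of both groups, while those of replicate 2 give the genotype alone and the regimen is that of the study's methods. ChIP-seq with antibodies against STAG1, STAG2, CTCF and SMC1A gave 2 WT and 2 STAG2-KD libraries each, hence 16 peak lists of 58418 to 150282 peaks. Replicate 1 and replicate 2 differ in the described extraction, in size selection and in peak threshold, so the replicate number marks a batch. The labels do not say whether they came from separate cultures, so p-values measure only the spread between these libraries.

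Each cohesin ring carries either STAG1 or STAG2. Cohesin is loaded along open and transcribed chromatin and moves until it meets an obstacle, so cohesin peaks that lack CTCF are a known feature of enhancers and of active genes, and STAG2 is the variant more often found there. CTCF sites hold both variants. In melanocytes and melanoma, large enhancer regions lie around genes of the pigment cell lineage such as MITF, the transcription factor that directs that lineage.

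**Figure D1:**
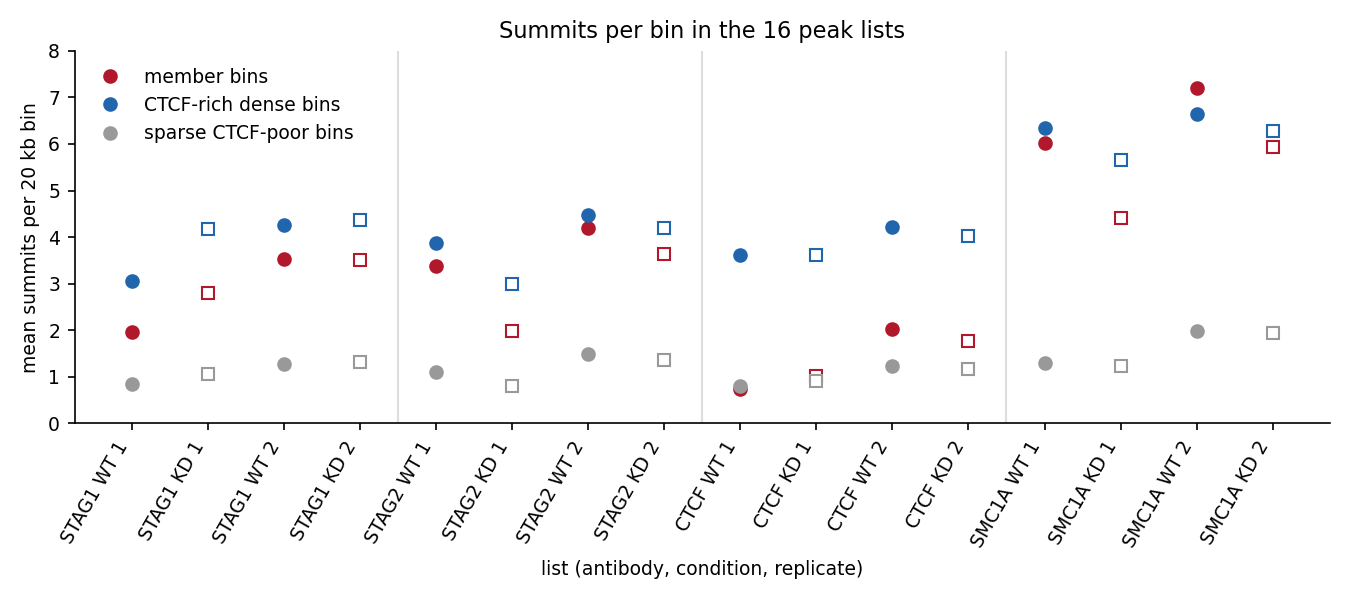
Mean number of summits per 20 kb bin (vertical axis) in each of the 16 lists (horizontal axis), for member bins, CTCF-rich dense bins and sparse CTCF-poor bins, with WT as filled circles and STAG2-KD as open squares. Member bins held 7.20 SMC1A summits per bin in the WT list of replicate 2, above the 6.64 of CTCF-rich dense bins, but 2.02 CTCF summits against 4.21.

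The member bins were dense in SMC1A in the second batch too, but less clearly poor in CTCF. In the replicate 2 WT SMC1A list, which the selection did not use, they held 7.20 ± 4.16 summits per bin (SD over bins), from 1 to 24. Of the 361 bins, 256 (70.9%) again had 5 or more, beside 4.43% of all bins and 74.9% of CTCF-rich dense bins. With lists cut to the same number of peaks the share was 9.77% of 133 bins. The share over all bins at that cut was not computed.

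CTCF poverty carried over in fewer of them. In the replicate 2 WT CTCF list, 145 member bins (40.2%) had at most 1 summit, beside 79.8% of all bins and 2.15% of CTCF-rich dense bins. Both conditions were met again by 107 members (29.6%), beside 0.956% of all bins. No CTCF summit in any of the 4 CTCF lists was found in 24 member bins (6.65%), a smaller share than the 9.65% of sparse CTCF-poor bins and the 50.5% of all bins. In the replicate 1 WT CTCF list 73.4% of members held a summit, with a mean of 0.734 per bin. Over all bins these values were 36.6% and 0.568. "Poor in CTCF" therefore means poor relative to CTCF-rich dense bins, which averaged 3.62 and 4.21 WT CTCF summits in replicates 1 and 2.

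At the edge of the selection the values changed gradually. The 201 bins with exactly 5 SMC1A summits averaged 6.01 replicate 2 WT SMC1A summits, and the 515 bins just outside, with 4, averaged 5.02. On the CTCF side, the 265 members with 1 CTCF summit averaged 2.27 replicate 2 WT CTCF summits and the 455 dense bins with 2 averaged 3.09.

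Almost every member bin held STAG2. A STAG2 summit lay in both WT lists in 356 bins (98.6%), beside 33.5% of all bins, 86.6% of the sparse CTCF-poor bins (1 to 4 SMC1A summits and at most 1 CTCF summit) and 98.9% of CTCF-rich dense bins. STAG1 was found less widely, in both WT lists in 310 bins (85.9%). The share was 28.6% over all bins, 74.0% in sparse CTCF-poor bins and 94.8% in CTCF-rich dense bins, below that of STAG2 in each class. The WT STAG1 lists were also shorter, with 63479 and 98437 peaks against 79048 and 118984 for STAG2. With lists of equal length, 90.2% of 133 bins had STAG1 in both WT lists and 93.2% had STAG2. By WT list, STAG1 lay in 85.9% of members in replicate 1 and 98.9% in replicate 2, and STAG2 in 98.6% and 100%. WT STAG2 summits numbered 3.37 per bin in replicate 1 and 4.20 in replicate 2, and WT STAG1 summits 1.96 and 3.54. CTCF-rich dense bins held 3.88 and 4.48 STAG2 summits and 3.06 and 4.25 STAG1 summits. The member bins thus had lower means for both variants, with the wider gap in STAG1 in both replicates. A summit in all 11 cohesin lists that the selection did not use was present in 291 members (80.6%), beside 22.7% of all bins, 62.2% of sparse CTCF-poor bins and 93.4% of CTCF-rich dense bins.

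The SMC1A peaks of member bins were weaker, narrower and closer together than elsewhere. In the replicate 2 WT list their median percentile by p-value was 43.8, against 53.3 in CTCF-rich dense bins and 56.5 in sparse CTCF-poor bins. Median width was 375 bp against 477 and 497 bp, and the median distance between neighbouring summits of a bin was 1117 bp against 1368 and 1335 bp. The background that MACS2 expected under these peaks, which rises with copy number and with open chromatin, was a median of 1.71 times the lowest value of the list, against 1.54 and 1.43. In the replicate 1 WT list it was 1.4 times, against 1.34 and 1.24. Its part in the number of summits was not tested.

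A large share of these SMC1A peaks had no other peak under them. In replicate 2 WT, 1437 of 2600 SMC1A peaks (55.3%) overlapped a STAG2 peak, 1039 (40.0%) a STAG1 peak and 568 (21.8%) a CTCF peak. In CTCF-rich dense bins the shares were 59.7%, 52.7% and 49.4%. None of the 3 was present at 1047 peaks (40.3%) in members, against 31.4% in CTCF-rich dense bins and 24.4% over the whole list. The selection limited CTCF in members, which bears on the CTCF share and on the share with none of the 3. STAG2 without STAG1 lay under 18.2% of the member peaks, against 11.6% in CTCF-rich dense bins and 14.7% over the list. In replicate 1, on which the selection was made, these shares were 29.2%, 19.2% and 15.4%.

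**Figure D2:**
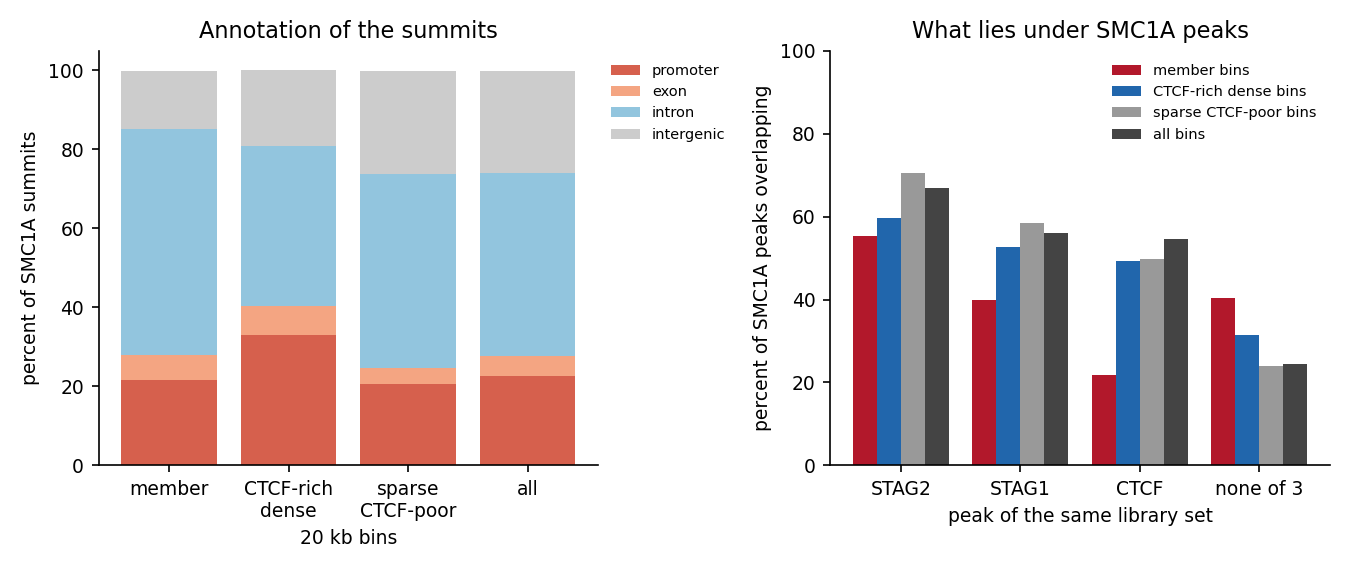
Left, percent of replicate 2 WT SMC1A summits at promoters, exons, introns and intergenic positions in 4 classes of 20 kb bins (stacked bars); right, percent of the SMC1A peaks that overlap a STAG2, STAG1 or CTCF peak of the same batch and condition, or none of the 3. Introns hold 57.0% of member summits, and CTCF lies under 21.8% of member peaks.

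Most summits lay inside genes, away from promoters. Of the 2600 replicate 2 WT SMC1A summits in member bins, 1483 (57.0%) were in introns, 562 (21.6%) within 1 kb of a transcript start, 387 (14.9%) between genes and 168 (6.46%) in exons. Promoters took 33.1% of the summits in CTCF-rich dense bins and 22.7% over the whole list, and introns 40.6% and 46.4%. The promoter share of members was 33.9% in the replicate 1 WT list, and 37.1% in replicate 2 when lists were cut to equal length. A protein-coding gene overlapped 284 member bins (78.7%), beside 49.5% of all bins and 85.8% of CTCF-rich dense bins. The start of such a gene lay in 34.1% of member bins, 59.5% of CTCF-rich dense bins and 10.7% of all bins. Member bins were also less rich in G and C than CTCF-rich dense bins, with a median of 44.1% against 49.1%, and 39.7% over all bins.

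The bins were scattered over the genome. Chromosome 2 held 39, chromosome 1 held 35 and chromosomes 3 and 11 held 28 each, while chromosomes 4 and 9 held 5 each and X held 1. Per bin, chromosome 19 had the highest share (0.575%) and X the lowest (0.0129%). Only pairs of adjacent members occurred, 13 of them, among them pairs at DHRS3, FMNL2, JARID2, TNS3 and SMAD3.

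The sequences under the strongest replicate 2 WT SMC1A summits are shown for the bins with most summits and for pigment cell genes, 50 bases to each side of the summit, plus strand of hg19, with matches to the motifs searched in capitals. They are printed to be read beside the motif counts that follow.
SSH1 intron, chr12:109197436-109197536: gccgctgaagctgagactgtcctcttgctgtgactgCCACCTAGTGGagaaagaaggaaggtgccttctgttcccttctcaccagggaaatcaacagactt
SPSB1 intron, chr1:9423096-9423196: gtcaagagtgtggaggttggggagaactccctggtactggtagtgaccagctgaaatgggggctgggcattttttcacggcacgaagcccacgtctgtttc
Past the 3′ end of NEAT1, chr11:65213017-65213117: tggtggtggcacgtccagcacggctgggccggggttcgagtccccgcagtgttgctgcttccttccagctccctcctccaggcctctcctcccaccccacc
Past the 3′ end of DHRS3, chr1:12625126-12625226: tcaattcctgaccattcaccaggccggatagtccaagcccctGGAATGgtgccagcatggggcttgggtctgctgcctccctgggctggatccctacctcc
MITF intron, chr3:69841438-69841538: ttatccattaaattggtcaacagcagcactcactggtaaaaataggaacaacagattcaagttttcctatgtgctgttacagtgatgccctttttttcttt
MBP promoter window, chr18:74823509-74823609: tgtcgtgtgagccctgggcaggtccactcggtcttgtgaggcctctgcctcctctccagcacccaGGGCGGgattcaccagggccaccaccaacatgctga
TRPM1 intron, chr15:31397609-31397709: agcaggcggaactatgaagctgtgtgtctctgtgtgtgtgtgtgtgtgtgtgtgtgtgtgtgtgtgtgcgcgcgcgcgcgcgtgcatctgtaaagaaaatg

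In these sequences the SSH1 summit alone holds the CTCF core, at base 37, and it is also the strongest of those shown, with a fold enrichment of 22.3 and the 97.2 percentile of its list. The capitals mark a TEAD match (GGAATG) at base 43 past DHRS3 and a GC box (GGGCGG) at base 66 at MBP, and the other 4 hold none of the motifs searched. The TRPM1 summit lies on a simple repeat of 2 bases. Such repeats of 20 bases or more lay within 100 bp of 2.23% of member summits and 1.83% of all summits of the list. In windows placed 5 kb away from the same summits the shares were higher, 3.15% and 2.75%.

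Over all 2600 member summits of replicate 2, the CTCF core lay within 100 bp of 52 (2.00%), against 7.16% in CTCF-rich dense bins and 9.85% over the list. Both strands were searched. Members were selected for few CTCF summits and CTCF-rich dense bins for 2 or more, so this contrast follows in part from the selection. The SOX-type sequence ACAAAG lay at 524 (20.2%), against 14.9% of windows placed 5 kb away from the same summits, 13.5% of summits in CTCF-rich dense bins and 16% over the list. In replicate 1 it lay at 17.6%, against 13.3% placed 5 kb away and 14.4% over the list. The AP-1 sequence TGANTCA lay at 9.23%, against 5.73% placed 5 kb away and 8.85% over the list. SOX10, which binds such sequences, directs the pigment lineage, and AP-1 factors respond to stress and growth signals. These matches are a description and not measured binding.
Against the whole list, the E-box CATGTG lay at 13.6% of member summits against 12.0%, CACGTG at 2.92% against 2.94% and the TEAD sequence at 12.3% against 12.0%. The cAMP-response element was rare, at 9 summits (0.346%) against 0.217%. The ETS sequence CCGGAA lay at 2.92% against 4.07% and the GC box at 9.04% against 11.3%, both lower in members.

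Upon STAG2 KD, member bins held fewer SMC1A summits, by an amount that depended on how bins and peaks were picked. In replicate 2 their SMC1A summits went from 2600 to 2139, a mean of 7.20 to 5.93 per bin, while the whole list barely changed in length (log2 ratio 0.02). Their share of the list fell from 1.75% to 1.42%, a log2 ratio of -0.30. In CTCF-rich dense bins the ratio was -0.10 and in sparse CTCF-poor bins -0.06. Fewer summits upon KD were seen in 219 members (60.7%), as many in 57 and more in 85. Among all bins with a replicate 2 WT SMC1A summit 31.7% had fewer, and among CTCF-rich dense bins 44.4%. Among bins with 5 or more such summits, where more can be lost, 186 of 256 members (72.7%) had fewer, beside 63.6% of all such bins, 53.4% of CTCF-rich dense ones and 74.7% of sparse CTCF-poor ones. The share in members was thus above that of CTCF-rich dense bins and below that of sparse CTCF-poor bins. Choosing bins for a high WT count favours a lower STAG2-KD count in every class.

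The selection itself bears on this fall, since it picked bins that were dense in WT cells. In replicate 1, which the selection used, there were 2178 and 1590 SMC1A summits and the share went from 2.65% to 1.74%, a log2 ratio of -0.61, which is a description only. When the same rule was applied to the STAG2-KD lists of replicate 1, it gave 360 bins, of which 104 were members. In those bins replicate 2 SMC1A summits numbered 6.97 per bin in WT and 6.42 in STAG2-KD, and the log2 ratio of shares was -0.14. In replicate 1 it was 0.26. Replicate 2 was thus lower in STAG2-KD under both choices of bins, by less with bins picked in knockdown cells, while the sign in replicate 1 followed the list used to pick them. With bins picked on the replicate 2 WT lists, the log2 ratio of SMC1A shares in replicate 1, unused there, was -0.13. With all lists cut to the same number of peaks, the replicate 2 ratio was -0.14.

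**Figure D3:**
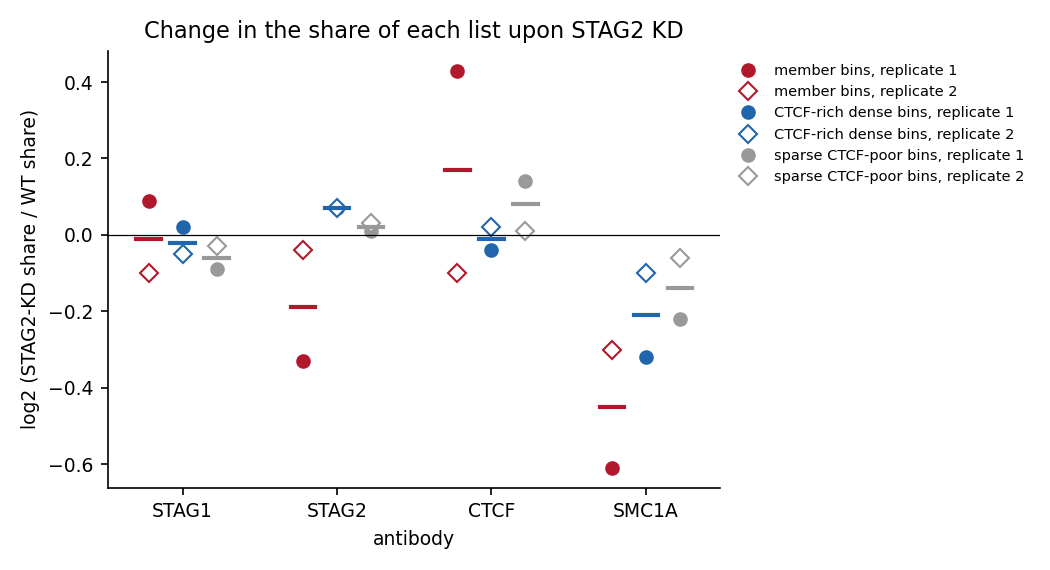
Log2 ratio of the share of each list's summits that lies in a class of bins, STAG2-KD over WT (vertical axis), by antibody, with replicate 1 filled, replicate 2 open and a bar at the mean of both. SMC1A lies at -0.61 and -0.30 in member bins and STAG2 at -0.33 and -0.04; member bins were selected on WT SMC1A and WT CTCF of replicate 1.

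STAG2 summits in member bins were fewer after KD in both replicates, 715 against 1218 and 1313 against 1517. The STAG2 lists also shortened, with log2 ratios of -0.44 and -0.16. As a share of the list, STAG2 in member bins was 1.54% (WT) and 1.22% (STAG2-KD) in replicate 1, then 1.27% and 1.24% in replicate 2. The log2 ratio averaged -0.19 ± 0.20 (SD, n = 2), with p = 0.333 in a two-sided exact permutation test, the smallest p that 2 libraries against 2 allow, and the spread between batches was as large as the mean. With lists of equal length the ratio was 0.07. In CTCF-rich dense bins the share ratio was 0.07 ± 0.00 (SD, n = 2).

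Fewer STAG2 summits in both replicates were counted in 134 of the 356 members with STAG2 in both WT lists (37.6%), beside 12.9% of all such bins and 23.4% of CTCF-rich dense ones. More in both were counted in 7 (1.97%), beside 0.826% of all such bins and 3.16% of CTCF-rich dense ones. No share at matched STAG2 density was computed. Of WT STAG2 peaks in members, 611 of 1218 (50.2%) had no overlapping STAG2-KD peak in replicate 1 and 384 of 1517 (25.3%) in replicate 2. Over all bins these shares were 32.2% and 22.1%, and in CTCF-rich dense bins 32.5% and 16.6%. Loss of a peak is loss at the authors' threshold, and WT STAG2 peaks of members lay at a median percentile of 31.9 and 47.3, nearer to that threshold than peaks of the whole list.

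With the full lists, the share of STAG1 in member bins moved little, and not alike in the batches, while the STAG1 lists lengthened (log2 ratios of 0.43 and 0.09). Replicate 1 had 707 summits in member bins in WT and 1014 after KD, and replicate 2 had 1277 and 1264. The share of the list was 1.11% and 1.19%, then 1.30% and 1.21%, a mean log2 ratio of -0.01 ± 0.14 (SD, n = 2; p = 1.00, two-sided exact permutation test). With all lists cut to the same number of peaks, and bins picked on the cut lists, the mean ratio was -0.24. It was lower in both replicates there, at -0.31 and -0.16. More STAG1 summits in both replicates were counted in 60 of 310 members (19.4%), beside 7.27% of all bins with STAG1 in both WT lists and 22.5% of CTCF-rich dense ones. Fewer in both were counted in 26 (8.39%), beside 2.26% and 4.14%. No share at matched STAG1 density was computed. At the STAG2 peaks that members lost, a STAG1 peak that was not there in WT appeared at 117 of 611 (19.1%) in replicate 1 and 24 of 384 (6.25%) in replicate 2, against 26.4% and 9.65% in CTCF-rich dense bins and 20.4% and 9.94% over all bins. These counts include lost peaks that held STAG1 in WT already. In members those were 24.1% and 18.8%, in CTCF-rich dense bins 31.2% and 33.5%, and over all bins 35.9% and 25.1%.
The partners of the remaining SMC1A peaks changed with the batch. STAG1 without STAG2 lay under 2.07% of WT member SMC1A peaks and 18.4% after KD in replicate 1. In replicate 2 the values were 2.85% and 4.16%. Over all bins they were 2.8% and 16.9%, then 3.82% and 6.20%, so the share rose over the whole list as well.

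For CTCF, replicate 1 gave 265 summits in WT members, a value capped by the selection, and 367 after KD. Replicate 2 gave 728 and 643, a log2 ratio of shares of -0.10. CTCF peaks in members were weak in replicate 2 WT, at a median percentile of 28.7, but not in replicate 1 WT, at 56.0.

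The densest member bin in the replicate 2 WT SMC1A list lay in LZTS1, a leucine-zipper tumour suppressor gene (chromosome 8, 20100001 to 20120000). Replicate 1 had 9 SMC1A summits there in WT and 8 in STAG2-KD, and replicate 2 had 24 and 13. In this order, WT then STAG2-KD of replicate 1 and then of replicate 2, the counts of other bins follow. STAG2 summits numbered 3 and 2, then 8 and 4. STAG2 was lower in STAG2-KD in each batch.

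The bin in SSH1, which encodes a phosphatase of the actin-severing protein cofilin (chromosome 12, 109180001 to 109200000), kept its density. SMC1A summits numbered 8 and 8, then 23 and 21. STAG2 summits were few for such a cluster, 1 in WT and 2 in STAG2-KD, then 3 and 3.

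SPSB1 and the SWT1 bin had many SMC1A summits and at most 3 STAG2 summits in any list. In SPSB1, a substrate adaptor of a ubiquitin ligase (chromosome 1, 9420001 to 9440000), SMC1A summits numbered 6 and 0, then 22 and 12. STAG1 had no summit there in any list, STAG2 had 3, all in the replicate 2 WT list, and CTCF had 4 in that WT list and 1 in the other. In the bin over SWT1 and IVNS1ABP (chromosome 1, 185260001 to 185280000) SMC1A went from 6 to 2 and from 21 to 6, with 1 STAG2 summit over the 4 lists, while STAG1 numbered 0 and 0, then 2 and 6. IVNS1ABP encodes a kelch protein that binds actin and an influenza protein, and its start lies in the neighbouring member bin, where SMC1A stayed at 5 and 6, then 6 and 5.

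The bin at NEAT1, the long noncoding RNA that builds paraspeckles (chromosome 11, 65200001 to 65220000), had 16 and 14, then 20 and 16 SMC1A summits, with 2 and 1, then 3 and 3 STAG2 summits. At DHRS3, a retinaldehyde reductase gene (chromosome 1, 12620001 to 12640000), SMC1A summits went from 16 to 9 and from 20 to 12, with no CTCF summit in any of the 4 CTCF lists. The member bin beside it at 12640001 to 12660000 had 11 and 3, then 13 and 15, so the batches disagreed there.

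The remaining bins of the densest were mixed. At TRIM66, RPL27A and DENND2B (chromosome 11, 8700001 to 8720000), where RPL27A encodes a ribosomal protein, SMC1A numbered 5 and 8, then 18 and 13. GCNT2, a glycosyltransferase that branches cell-surface glycans (chromosome 6, 10520001 to 10540000), had the most WT STAG2 of those described, with 9 and 1 summits in replicate 1 but 13 and 14 in replicate 2.

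**Figure D4:**
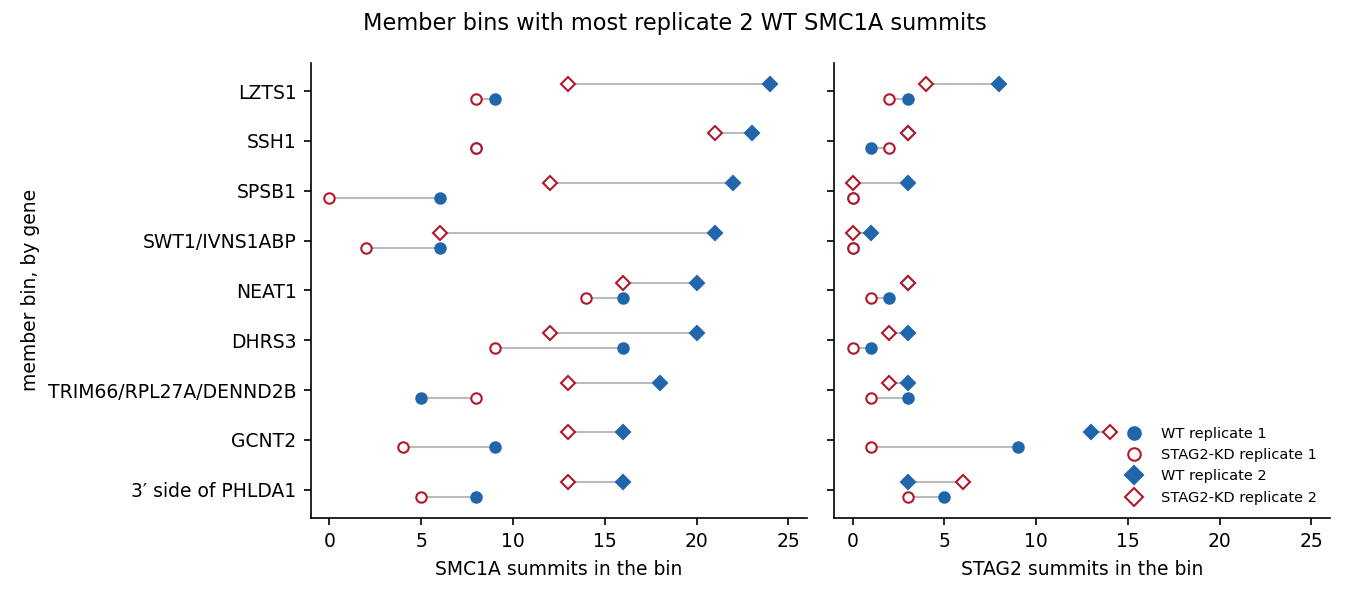
SMC1A (left) and STAG2 (right) summits, horizontal axis, in 9 of the 10 member bins with most replicate 2 WT SMC1A summits (rows), with WT filled, STAG2-KD open, replicate 1 as circles and replicate 2 as diamonds. SMC1A is lower in STAG2-KD in replicate 2 in all 9, from 22 to 12 at SPSB1 and from 21 to 6 at SWT1 and IVNS1ABP.

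In replicate 2 all 9 described here had fewer SMC1A summits in STAG2-KD. These bins were ranked on their WT count in that replicate, so the direction there is a description, as it is in replicate 1, whose WT list chose the members. In replicate 1, 7 of them were lower, SSH1 was level and the RPL27A bin was higher.

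The last of them lay among a group of member bins beside PHLDA1, a gene induced by ERK signals. Across 380 kb that end at the 3′ part of the gene (chromosome 12, 76040001 to 76420000) lay 7 member bins, the most of any such group, and 6 of them overlapped no protein-coding gene. The group was noted after the values were seen. Together the 7 bins held 45 and 31, then 70 and 48 SMC1A summits. STAG2 summits numbered 25 and 17, then 33 and 35, and STAG1 summits 21 and 22, then 27 and 28. CTCF summits numbered 3 and 3, then 9 and 7. In replicate 2, which did not choose the bins, SMC1A was lower in STAG2-KD and STAG2 was higher by 2 summits.

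**Figure D5:**
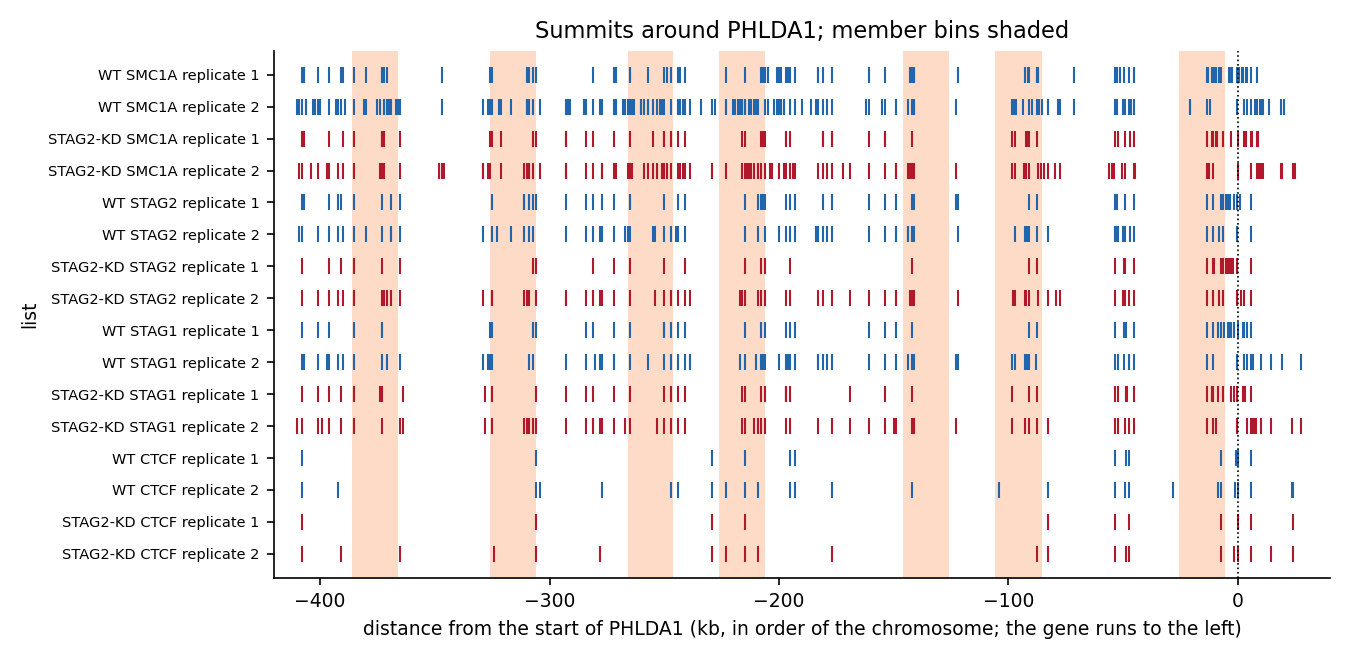
Positions of summits in the 16 lists (rows, WT in blue and STAG2-KD in red) by distance from the start of PHLDA1 in kb (horizontal axis, negative values on the 3′ side), with the 7 member bins shaded. The shaded bins were selected for dense SMC1A and at most 1 CTCF summit each in replicate 1 WT, so these features restate the selection. In replicate 2, which did not choose them, they held 70 SMC1A summits in WT and 48 in STAG2-KD. CTCF summits numbered 9 and 7 there. SMC1A summits also cluster in unshaded stretches.

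A body overlapping a member bin was found for 308 of 19497 protein-coding genes (1.58%). These genes were long, with a median of 93.4 kb against 26.9 kb over all, and 33 of them held more than 1 member bin. MITF and FMNL2, a formin that extends actin filaments, held 3 each. In lists chosen with earlier results of these data known, 7 of 30 melanocyte lineage genes (23.3%), 5 of 25 ERK target genes (20%), 4 of 30 genes of the dedifferentiated melanoma state (13.3%), 5 of 48 abundant housekeeping transcripts (10.4%) and 1 of 26 extracellular matrix genes (3.85%) had a member bin. The housekeeping count includes NEAT1, a noncoding RNA that is not among the 19497. No member bin overlapped any of 34 interferon-stimulated genes, 18 AP-1 subunit genes, 26 genes of cohesin and its regulators or 20 genes of proteins secreted by the liver. At the overall 1.58%, lists of this size would often hold none, so such absence says little about these lists. Median gene length was 48.2 kb in the melanocyte list, 13.3 kb in the ERK list and 11.1 kb in the housekeeping list, and no test was made of these shares.

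Among pigment cell genes, the 3 bins in MITF (chromosome 3, gene at 69788607 to 70017487) held together 19 and 13, then 29 and 21 SMC1A summits. STAG2 went from 13 to 5 and from 20 to 12, while STAG1 numbered 8 and 8, then 10 and 9. STAG2 was lower in STAG2-KD in both batches and SMC1A in replicate 2, while STAG1 was level or lower by 1. The SMC1A fall in replicate 1 is read from the list that chose the bins. DCT, a melanin-synthesis enzyme, had a bin with no CTCF summit in any list, SMC1A at 5 and 3, then 11 and 10, and STAG2 at 6 and 0, then 5 and 8. ST3GAL6, a sialyltransferase, was dense in all 3 cohesin subunits, with SMC1A at 13 and 11, then 15 and 14, and STAG1 at 7 and 5, then 11 and 7.
TRPM1, a channel gene whose intron harbours a pigment-cell microRNA, had SMC1A at 6 and 6, then 8 and 5, and STAG2 at 4 and 1, then 7 and 4. MBP had SMC1A at 5 and 6, then 10 and 7. BCL2A1, an inhibitor of cell death that MITF activates, had SMC1A at 5 and 4, then 6 and 5. MYO5A, the motor that carries melanosomes, had SMC1A at 5 and 3, then 4 and 5. In replicate 2, which did not choose the bins, SMC1A was lower in STAG2-KD at 6 of the 7 genes and higher at MYO5A, beside 60.7% of members with fewer.

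Among ERK target genes, SPRY4, DUSP6 and SPRED2 encode inhibitors of the pathway, and they showed no common change. SPRY4 had SMC1A at 9 and 7, then 16 and 16. The bin at DUSP6, the phosphatase of ERK, was dense in replicate 1 alone, with SMC1A at 14 and 15, then 4 and 3, and STAG1 at 9 and 9, then 6 and 7. SPRED2 had SMC1A at 6 and 5, then 6 and 5. ETV4, an ETS factor, had SMC1A at 6 and 6, then 8 and 10, and STAG2 at 5 and 0, then 8 and 7. The bin at PHLDA1 itself had SMC1A at 9 and 6, then 4 and 3.

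In the dedifferentiated-state list, 2 bins in WWTR1 and 2 in TEAD1, genes for a coactivator and a DNA-binding factor of the Hippo pathway, held many summits. WWTR1 had SMC1A at 12 and 13, then 22 and 20, and STAG2 at 6 and 3, then 17 and 11. TEAD1 had SMC1A at 12 and 20, then 20 and 19, and STAG1 at 4 and 8, then 10 and 9. CD44, the hyaluronan receptor, had SMC1A at 8 and 5, then 15 and 12. CAV2, a caveolin, had SMC1A at 5 and 2, then 2 and 1. SPARC, a matrix glycoprotein of the extracellular matrix list, had SMC1A at 8 and 4, then 15 and 15.

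Abundant transcripts gave mixed values. At CALM2, a calmodulin gene, SMC1A went from 5 to 1 and from 13 to 2, with no STAG1 or CTCF summit in any list and 3 STAG2 summits over all 4 lists. At FTH1, the ferritin heavy chain, SMC1A went from 12 to 8 and from 14 to 9, with STAG2 at 6 and 3, then 8 and 5. EEF1G had SMC1A at 6 and 3, then 4 and 7. YWHAZ, a 14-3-3 protein, had SMC1A at 6 and 5, then 2 and 5, and had one of the larger rises in STAG1, from 2 to 7 and from 3 to 5, a sum of 7 that 3 members shared, the one not described lying at MYEOV. In replicate 2, SMC1A was lower in STAG2-KD at CALM2, FTH1 and NEAT1 and higher at EEF1G and YWHAZ.

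By summed STAG2 fall, the first member lay in INPP4B, with 9 summits fewer, and 5 members tied at 8, of which the first 2 in genome order are described. STAG2 went from 8 to 2 and from 8 to 5 at INPP4B, a phosphoinositide phosphatase. It went from 7 to 1 and from 6 to 4 at BCAR3, an adaptor of integrin and Src signals, and from 7 to 1 and from 8 to 6 at IGF2BP2, an RNA-binding protein. The other tied members lay at JARID2, VMP1 and SMAD7. SMC1A did not follow it in each: it went from 5 to 8 and from 8 to 7 at INPP4B, from 6 to 7 and from 10 to 8 at BCAR3, and from 9 to 7 and from 10 to 6 at IGF2BP2. STAG1 rose most, by 9 in sum, at TSHZ1, a zinc-finger factor (1 to 6 and 3 to 7), and by the tied 7 at MPC2 and DCAF6 (0 to 5 and 1 to 3), where MPC2 is a subunit of the mitochondrial pyruvate carrier. All 6 of these bins were picked for the change they show.
The other pairs of adjacent members named by the same rule gave no common direction: at PHACTR4 and RCC1, a regulator of the nuclear transport GTPase (chromosome 1, 28820001 to 28860000), SMC1A numbered 8 and 10, then 12 and 11 in the first bin and 6 and 6, then 5 and 7 in the second.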

How the data were processed

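The deposited lists hold, per peak, a whole-number score, the fold enrichment at the summit (a ratio), −log10 p-value, −log10 q-value and the summit offset, as the authors made them with MACS2 against input on hg19, 1 list per library. Per the labels' processing notes, replicate 1 was processed with Bowtie2 and MACS2 and replicate 2 with CASAVA 1.4, BWA, SAMtools, Picard, MACS2 and deepTools. The study's methods name bowtie2 throughout. Lists of replicate 1 stop at a −log10 q-value of 2 and those of replicate 2 at a −log10 p-value of 2, so list lengths differ between batches. Input libraries (4 of 20 samples) had no list and were not analysed here.

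Peaks on chromosomes 1 to 22 and X were kept, which left out 3.02% to 4.76% of peaks in replicate 1 and 0.145% to 0.298% in replicate 2. No peak ended past a chromosome of the GRCh37 reference. Summits were counted in 20 kb bins with Python 3.11.15, numpy 2.4.6 and pandas 2.3.3, and annotated with GENCODE v44lift37 (promoter: within 1 kb of any transcript start). Peaks overlapped when they shared 1 bp. Because the lists give no read counts, only peaks, depth was inferred from fold and p-value: the expected background and pileup were solved for every peak, and pileups came out as whole fragments (within 0.02) for 96.7% to 99.7% of SMC1A peaks. With an assumed genome of 2.7 Gb and the narrowest peak as fragment length, SMC1A libraries came to 23.0 to 48.1 M reads; most STAG1 and STAG2 lists gave no such solution. A deeper library passes weaker peaks. The functions were tested on simulated data.

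WT and STAG2-KD were compared as log2 ratios of the share of each list in member bins, with two-sided exact permutation tests over libraries (scipy 1.17.1), which cannot go below 0.333. Libraries of a replicate share extraction and processing per the labels, so the number marks a batch. Over member bins the differences between replicates correlated between WT and STAG2-KD (log2 of summits + 1) at 0.34 (STAG1), 0.39 (STAG2), 0.40 (CTCF) and 0.48 (SMC1A). The members, gene lists, motifs and tests were chosen with earlier results of these data known. Named bins were the 10 with most replicate 2 WT SMC1A summits, the first 3 of the longest adjacent runs, the 3 with the largest STAG2 fall and STAG1 rise, and those over list genes; the sequences at melanocyte genes and the group beside PHLDA1 were added after the values were seen. Sequence was not printed where it touched an annotated exon. Of the 10 densest bins 1, and the sequences at some melanocyte genes, are not reported here. Gene symbols were matched by name or synonym, and all list genes matched.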

Additional observations from a re-analysis of the deposited data

Results flagged for a closer look

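The replicate 1 lists also hold peaks on sequences outside the chromosomes, such as patches and alternate loci, which no comparison used. There, 2 bins on 2 such sequences met the same rule in the WT lists, with 11 SMC1A summits between them. This was noted as signal in data outside the main measurement, and was compared with no control.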

How the results depend on the processing

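Of 114 alternative values, 68 were scored as the same. Ratios had to keep their sign, and the number of bins had to stay within a set fold of the main one. Percentages had to lie in the 95% interval of the main value, which treats bins or summits as independent. The ratios paired within replicate number repeat the main values by construction and count among the 68. The mean SMC1A ratio (-0.45) includes replicate 1, whose WT list chose the bins, so its sign in settings that also pick bins on WT SMC1A says nothing about stability. With bins picked on the replicate 1 STAG2-KD lists, an alternative chosen after seeing the data, it was 0.06, CTCF was -0.30, STAG1 0.09 and the share of bins with STAG2 in both WT lists 96.7%. The STAG2 ratio kept its sign except with lists of equal length (0.07). The STAG1 ratio of -0.01 had no stable sign: it was 0.05 with bins shifted by 10 kb, 0.08 with 10 kb bins, 0.00 with 40 kb bins, 0.03 with 0 CTCF summits, 0.00 with members chosen in replicate 2, 0.06 at a −log10 q-value of 5 and 0.01 at 2. With lists of equal length the STAG1 ratio was -0.24. Leaving out a replicate gave -0.10 to 0.09 for STAG1, -0.33 to -0.04 for STAG2, -0.10 to 0.43 for CTCF and -0.61 to -0.30 for SMC1A, and 98.6% to 100% and 85.9% to 98.9% for bins with STAG2 and STAG1 in the WT lists. Paired within replicate number (a block), the ratios were the same (-0.01, -0.19, 0.17 and -0.45) and the exact sign-flip test gave p = 0.500 for STAG2 and SMC1A, the smallest it allows, and 1.00 for the others. The block changed no call. For SMC1A and CTCF the replicate 1 WT lists chose the bins, so their p-values are no test of the knockdown.

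The number of bins was 96 with 0 CTCF summits, 84 with 7 or more SMC1A summits, 1451 with the replicate 2 lists, 80 at a −log10 q-value of 5 and 133 with equal lists. The share that was dense in the other WT SMC1A list was 55.7% with 10 kb bins, 83.1% with 40 kb bins, 77.4% with 7 or more summits, 8.34% with members chosen in replicate 2, 25% at q 5, 61.5% at q 2 and 9.77% with equal lists. STAG2 in both WT lists was 95% with 10 kb bins, 100% with 7 or more summits, 85.6% for replicate 2 members and 93.2% with equal lists. STAG1 in both was 79.0%, 91.7%, 65.7% and 90.2% in these settings, 70.8% with 0 CTCF summits and 90% at q 5. Promoter summits were 26.9% with 10 kb bins, 16.6% with 40 kb bins, 19.3% with 0 CTCF summits, 19.7% with 7 or more summits, 23.6% for replicate 2 members, 29.3% at q 5, 23.3% at q 2 and 37.1% with equal lists. With 0 CTCF summits the CTCF ratio has no value, as the rule sets its WT count to 0. The cause of these shifts was not tested. No count of reads bounds the peaks, and a site under a threshold counts as absent.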
